A study of Homo sapiens with 6 samples.

Results

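The genes described here are 10 genes of the DNA replication machinery, defined by gene symbol and followed across 3 conditions of a human prostate cancer cell line: MCM2, MCM3, MCM4, MCM5, MCM6, MCM10, GINS2, DBF4, POLD1 and RRM2. Of the 10 genes, 9 were among the 1944 genes of the deposited expression table, and MCM10 was not. MCM6, MCM10, GINS2 and DBF4 held 5 of the 4903 polyadenylation sites of the deposited site table. The cells were LNCaP, an androgen-sensitive prostate cancer line. In the siSAM68 group the RNA-binding protein Sam68 (gene KHDRBS1) was silenced. In the siXRN2 group the nuclear exonuclease XRN2, which acts in transcription termination, was silenced. The siCTRL group received a scrambled siRNA. All 3 groups received 50 nM siRNA in repeated transfections and were taken at 48 hours, with 2 biological replicates each and 6 libraries in all. The assay was 3'READS, a sequencing method for the 3' ends of polyadenylated RNA, so that a read counts a transcript end and marks the site where it was cleaved.

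Replication of DNA starts from the MCM hexamer, a ring of MCM2, MCM3, MCM4, MCM5, MCM6 and MCM7 that is loaded on origins before S phase and later unwinds the duplex. Firing needs the DBF4-dependent kinase, in which DBF4 activates CDC7, together with MCM10 and with the GINS complex, of which GINS2 is a subunit and which joins CDC45 and the hexamer in the active helicase. POLD1 is the catalytic subunit of DNA polymerase delta, and RRM2 is the small subunit of ribonucleotide reductase, which makes deoxyribonucleotides. Many of these genes are transcribed in waves with the cell cycle, under E2F factors.

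Expression is given in RPM, the reads of a gene scaled to sequencing depth, rescaled so that both libraries of a group have the same listed total. Changes are on the log2(RPM + 1) scale and were tested with limma, with p-values adjusted over all 1938 tested genes by Benjamini-Hochberg and a threshold of 0.05. Reads were estimated from the smallest RPM step of a group and are approximate, as are the counting intervals made from them. As a check, site usage times these reads was whole in 69.8% to 92.6% of the sites checked, depending on the library. Only 291 to 660 sites per library were checked, from genes in both the expression and the site table and up to a read limit. The estimates were not checked on the other listed sites or at higher read numbers. Approximate reads in listed genes were 674072 and 788203 in the siSAM68 libraries, 597911 and 1599559 in the siXRN2 libraries, and 244708 and 447363 in the siCTRL libraries. KHDRBS1 had 53.8 and 27.5 RPM in the siSAM68 libraries, against 601 and 741 RPM in the siCTRL libraries. Its log2 change was -4.08 (SE 0.28, limma adjusted p = 7.88e-07), and XRN2 itself was not analysed here, so that its silencing is known from the labels alone. Of 12 luminal prostate markers 9 were listed, and none of 4 fibroblast, 3 endothelial, 3 immune and 3 basal epithelial markers was. The tables are selected lists with an unstated rule, rich in features that differ between these libraries, so adjusted p-values can be too small and shares hold for the lists only. Fewer cells of a type and less RNA per cell cannot be told apart in bulk libraries.

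After Sam68 silencing the replication genes did not move as a block. MCM6, DBF4 and RRM2 rose, MCM5 and POLD1 fell, and MCM2, MCM3, MCM4 and GINS2 did not pass the test. That is 5 of the 9 listed members called, or 55.6%, against 58.8% of all tested genes, so the share of members called was near the background. By direction, 3 members were higher against 35.3% of all genes, and 2 were lower against 23.4%. With median-of-ratios scaling, which moved the median change of all genes to 0.00, the split over all genes was 527 higher and 546 lower, against 685 and 454 here, and in siXRN2 344 and 303, against 411 and 235. After XRN2 silencing 2 of 9 members were called, MCM6 and DBF4, both higher. That is 22.2%, against 33.3% of all genes, or 21.2% for the higher direction alone. Both libraries of the silenced group lay outside the range of the siCTRL libraries for 5 of 9 members in siSAM68, against 79.7% of all genes, and for 4 of 9 in siXRN2, against 65.7%. The median log2 change of the members was 0.27 in siSAM68 and 0.21 in siXRN2, beside 0.16 and 0.08 over all genes. Both comparisons share the siCTRL libraries.

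**Figure D1:**
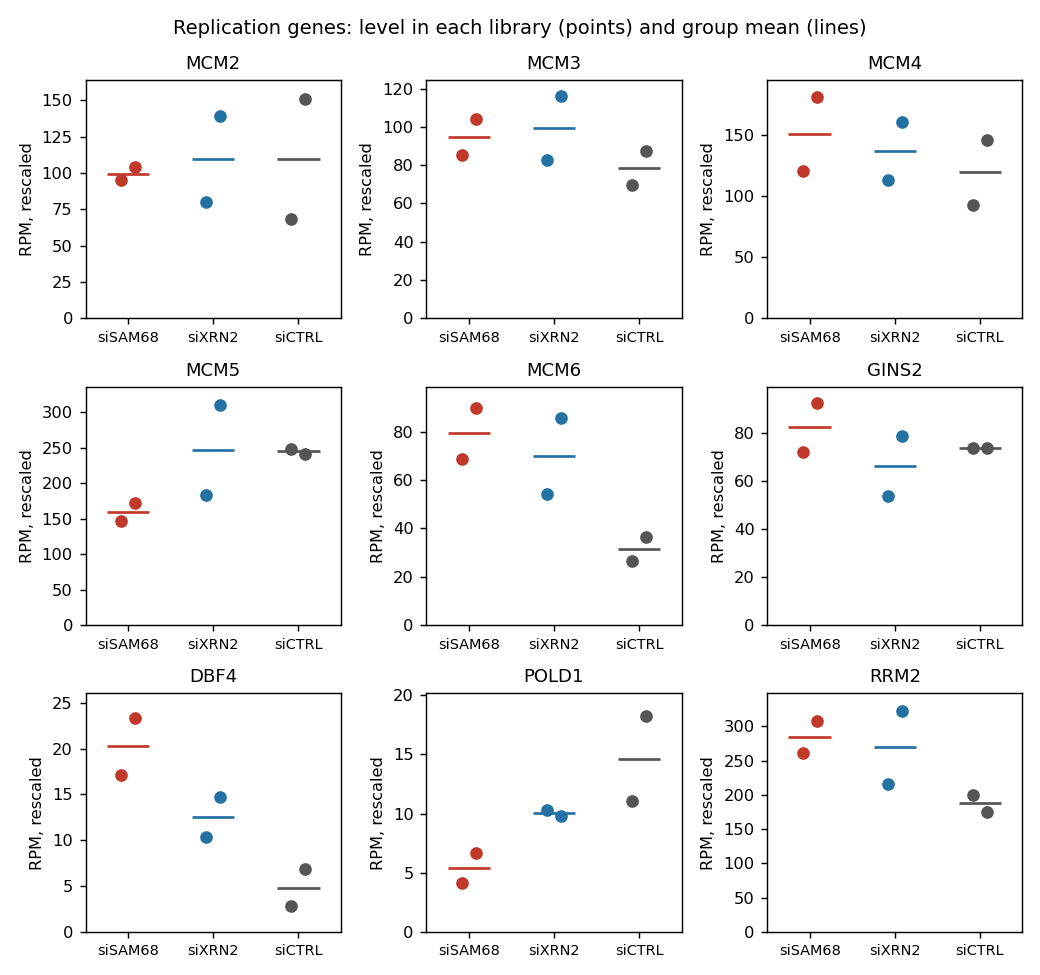
Rescaled RPM of the 9 listed replication genes in each library (points) with the mean of each group (lines); each panel has its own linear axis from 0. In MCM6, DBF4 and RRM2 both siSAM68 and both siXRN2 points lie above both siCTRL points, and in MCM5 and POLD1 both siSAM68 points lie below them.

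Among the hexamer genes, MCM6 was the member called in both silencings. It had 68.8 and 89.8 RPM in siSAM68, 54.4 and 85.5 RPM in siXRN2, and 26.3 and 36.5 RPM in siCTRL. Every silenced library was higher than both control libraries. The log2 change was 1.31 in siSAM68 (SE 0.28, limma adjusted p = 0.00491) and 1.11 in siXRN2 (SE 0.28, limma adjusted p = 0.0147). These levels rest on 133 and 203 reads in siSAM68, 94 and 396 in siXRN2, and 19 and 48 in siCTRL. With the libraries of a group pooled, the ratio of reads per listed read was 2.37 in siSAM68 over siCTRL, with an exact 95% counting interval of 1.82 to 3.13. In siXRN2 over siCTRL it was 2.30, with an interval of 1.78 to 3.02. These intervals cover counting error only. The siXRN2 call of MCM6 was lost without siCTRL replicate 1 (log2 0.88, limma adjusted p = 0.0968) and without siXRN2 replicate 2 (log2 0.79, limma adjusted p = 0.0705), within a range of 0.000125 to 0.998 over its alternatives.

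MCM5, which in yeast forms with MCM2 the gate of the ring through which DNA enters, went the other way in siSAM68. It had 147 and 173 RPM in siSAM68, 183 and 311 RPM in siXRN2, and 249 and 241 RPM in siCTRL. Both siSAM68 libraries were below both controls, while the siXRN2 libraries lay on either side of them. The log2 change was -0.62 in siSAM68 (SE 0.23, limma adjusted p = 0.0339) and -0.04 in siXRN2 (limma adjusted p = 0.913). With a correction for transcript GC content, which is 56.6% for MCM5, the siSAM68 change was -0.50 (limma adjusted p = 0.0703, range over its alternatives 0.00164 to 0.86). Leaving out either siSAM68 or either siCTRL library also ended the call, at log2 changes between -0.73 and -0.50.

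The other listed hexamer members did not pass the test in either silencing. MCM4 had 120.4 and 181 RPM in siSAM68, 113 and 160.3 RPM in siXRN2, and 93.0 and 146 RPM in siCTRL. MCM3 had 85.3 and 104 RPM in siSAM68, 82.7 and 116 RPM in siXRN2, and 69.6 and 87.4 RPM in siCTRL. MCM2 had 95.02 and 104 RPM in siSAM68, 80.1 and 139.6 RPM in siXRN2, and 68.2 and 151 RPM in siCTRL. In all 3 genes the groups overlapped. At each replicate number MCM3 and MCM4 were higher in both silencings than in siCTRL, and MCM2 was so at replicate 1 only. The log2 changes in siSAM68 were 0.34 for MCM4 (SE 0.27), 0.27 for MCM3 (SE 0.24) and -0.03 for MCM2 (SE 0.33), with limma adjusted p-values of 0.299, 0.355 and 0.942. In siXRN2 they were 0.21, 0.33 and 0.06, with limma adjusted p-values of 0.570, 0.304 and 0.906. The siCTRL libraries of MCM2 lay outside both siSAM68 libraries on either side. MCM7, the remaining ring subunit, is not among the 10 genes and was looked at after its values were seen. It had 367 and 483 RPM in siSAM68, 396 and 461 RPM in siXRN2, and 300.3 and 489 RPM in siCTRL, with log2 changes of 0.14 (limma adjusted p = 0.633) and 0.16 (limma adjusted p = 0.620).

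Among the firing genes, DBF4 changed the most of the 9 members and was also among the least read. It had 17.1 and 23.4 RPM in siSAM68, 10.3 and 14.7 RPM in siXRN2, and 2.83 and 6.81 RPM in siCTRL. Both siSAM68 libraries were above both siXRN2 libraries, and these above both controls. The log2 change was 1.94 in siSAM68 (SE 0.43, limma adjusted p = 0.00494) and 1.28 in siXRN2 (SE 0.43, limma adjusted p = 0.0337). The reads behind it were 33 and 53 in siSAM68, 18 and 68 in siXRN2, and 2 and 9 in siCTRL. Pooled, the ratio per listed read was 3.70 in siSAM68 over siCTRL (exact 95% counting interval 1.97 to 7.69) and 2.46 in siXRN2 over siCTRL (1.31 to 5.12). The siXRN2 call was lost without siCTRL replicate 1, the library with 2 reads (log2 0.77, limma adjusted p = 0.181), without siXRN2 replicate 2 (log2 1.05, limma adjusted p = 0.161) and with voom weights on the approximate reads (log2 1.28, limma adjusted p = 0.0774), within a range of 0.00994 to 0.998 over its alternatives.

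GINS2 had 72.2 and 92.4 RPM in siSAM68, 53.7 and 78.7 RPM in siXRN2, and 73.8 RPM in each siCTRL library. The groups overlapped. Its log2 change was 0.14 in siSAM68 (SE 0.25, limma adjusted p = 0.637) and -0.18 in siXRN2 (SE 0.25, limma adjusted p = 0.597). MCM10 has no expression value in the table and is described by its polyadenylation site alone.

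The polymerase subunit and the ribonucleotide reductase subunit moved apart. POLD1 had 4.12 and 6.68 RPM in siSAM68, 10.3 and 9.75 RPM in siXRN2, and 11.03 and 18.3 RPM in siCTRL. Each silenced library was below both controls. The log2 change was -1.28 in siSAM68 (SE 0.41, limma adjusted p = 0.0179) and -0.47 in siXRN2 (SE 0.41, limma adjusted p = 0.397). POLD1 was read 8 and 15 times in siSAM68, 18 and 45 times in siXRN2, and 8 and 24 times in siCTRL. The siSAM68 call of POLD1 ended without siSAM68 replicate 1 (log2 -0.99) and without siCTRL replicate 2 (log2 -0.94). RRM2 had 261 and 308 RPM in siSAM68, 216 and 323 RPM in siXRN2, and 200.2 and 175 RPM in siCTRL, so that all 4 silenced libraries were above both controls. Its log2 change was 0.60 in siSAM68 (SE 0.21, limma adjusted p = 0.0282) and 0.49 in siXRN2 (SE 0.21, limma adjusted p = 0.0847). Leaving out either siSAM68 or either siCTRL library ended its siSAM68 call, at log2 changes between 0.48 and 0.71. Its siXRN2 change passed the test without siXRN2 replicate 1, at a log2 change of 0.78 (limma adjusted p = 0.00149), and was 0.20 without siXRN2 replicate 2 (limma adjusted p = 0.478), within a range of 0.00149 to 0.998 over its alternatives.

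**Figure D2:**
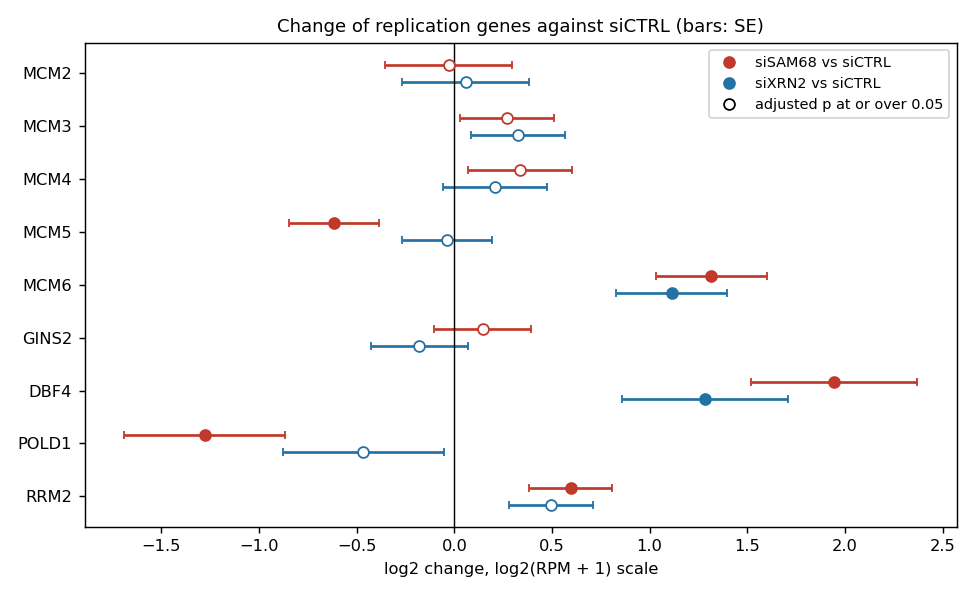
Log2 change of each listed replication gene against siCTRL on the log2(RPM + 1) scale, with bars of 1 SE; siSAM68 is in red above siXRN2 in blue, and filled points have a limma adjusted p under 0.05. MCM6 and DBF4 are filled in both comparisons, and MCM5, POLD1 and RRM2 in siSAM68.

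Transcript GC content ran along with the order of the members in siSAM68. DBF4, MCM6 and RRM2, the members that rose, have transcripts with 40.1%, 43.1% and 43.4% GC, while MCM5 and POLD1, which fell, have 56.6% and 64.8%. MCM4, GINS2, MCM3 and MCM2 have 48.5%, 49.1%, 51.6% and 58.1%. Over all genes with a GC value, cut into quartiles of 481 genes from low to high GC, the median log2 change in siSAM68 was 0.34, 0.38, 0.22 and -0.40. In siXRN2 the medians were -0.00, 0.20, 0.17 and -0.03. There too DBF4, MCM6 and RRM2 were the highest members, at 1.28, 1.11 and 0.49, and POLD1 was the lowest, at -0.47. MCM5 was at -0.04. A link of GC content with the changes of the members was not tested. With a correction for GC content, MCM6 had a log2 change of 1.14 in siSAM68 (limma adjusted p = 0.00632) and DBF4 of 1.77 (limma adjusted p = 0.00529), and both kept their calls. POLD1 had -0.89 (limma adjusted p = 0.0886) and RRM2 0.42 (limma adjusted p = 0.115), and both lost theirs, as did MCM5. The count of members called in siSAM68 was then 2 of 9, beside 978 of 1938 genes with the same correction and 1139 without it. With the correction the share of members called was thus below that of all genes, and no longer near it. Over their alternatives the adjusted p of MCM6 ran between 9.24e-06 and 0.86, of DBF4 between 0.000134 and 0.794, of POLD1 between 0.0100 and 0.86, and of RRM2 between 0.00177 and 0.86. Another scaling, by the median of ratios, ended the RRM2 call in siSAM68 at a log2 change of 0.44 (limma adjusted p = 0.0947).

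**Figure D3:**
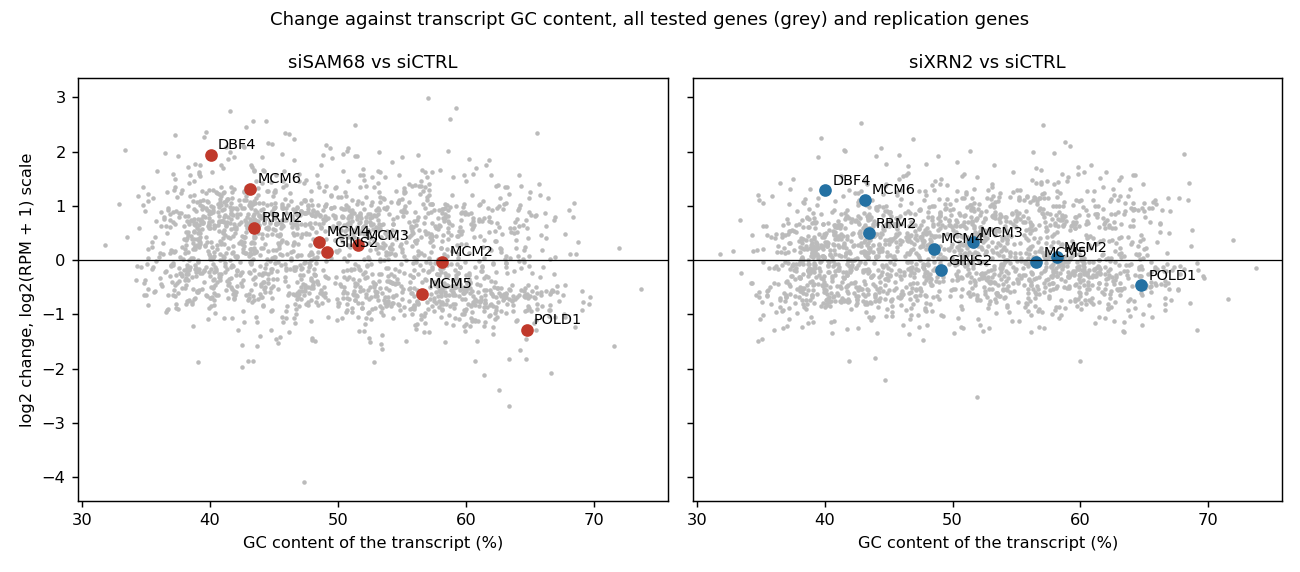
Log2 change against siCTRL plotted against the GC content of the transcript in percent, for all tested genes with a GC value (grey) and the 9 listed replication genes (named), in siSAM68 (left) and siXRN2 (right). In both panels DBF4 at 40.1% GC is the highest named gene and POLD1 at 64.8% GC the lowest.

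Set directly against each other, siSAM68 and siXRN2 gave no call among the 9 members, beside 3 calls among all genes, or 0.155%. The libraries of both groups did not overlap for 3 of 9 members, against 60% of all genes. At an unadjusted p under 0.05 there was 1 member, and 444 of all genes. That member was MCM5, which was lower in siSAM68 than in siXRN2 by -0.58 on the log2 scale (SE 0.23, limma adjusted p = 0.157). Without siXRN2 replicate 1, the shallower library of its group, the difference was -0.96 (limma adjusted p = 0.000329), and without siXRN2 replicate 2 it was -0.20 (limma adjusted p = 0.667), within a range of 0.000329 to 1.00 over its alternatives. POLD1 differed by -0.81 (SE 0.41, limma adjusted p = 0.243) and DBF4 by 0.66 (SE 0.43, limma adjusted p = 0.359). For MCM6 the difference was 0.20 (SE 0.28) and for RRM2 0.10 (SE 0.21), with limma adjusted p-values of 0.682 and 0.795. The remaining members differed by between -0.09 for MCM2 and 0.33 for GINS2. With SEs of this size, differences that miss the threshold do not show that both silencings acted alike on a gene.

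Usage of a polyadenylation site is its percent of the reads of the gene, and changes are on the log2(percent + 1) scale. Of the 5 sites of the replication genes, 2 were called in siSAM68, both higher, and 1 in siXRN2, also higher, against 14.6% and 5.19% of all tested sites, or 8.68% and 3.79% for the higher direction alone. Between siSAM68 and siXRN2 limma called none of the 5 and none of all sites, at an unadjusted p under 0.05 for 0 of the 5 and 642 of all. The libraries did not overlap there for 3 of the 5, against 52.2% of all sites. In each of the 5 sites the silenced libraries did not overlap the control libraries, in siSAM68 or in siXRN2, which also held for 76.2% and 71.1% of all sites. Positions are hg19 coordinates. The type codes of the table were read as middle 3' UTR site, last 3' UTR site and intronic site, since no source used here defines them.

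MCM10, the activator of the loaded helicase, was called in both silencings at a middle site with the signal AATAAA on the plus strand of chromosome 10, position 13251840. Its usage was 34.3% and 27.9% in siSAM68, 42.1% and 32.1% in siXRN2, and 11.1% and 7.50% in siCTRL. All 4 silenced libraries were above both controls. The log2 change was 1.65 in siSAM68 (SE 0.33, limma adjusted p = 0.0422) and 1.90 in siXRN2 (SE 0.33, limma adjusted p = 0.0463). The reads behind these percentages are unknown. Both calls ended when any 1 of the 6 libraries was left out, with log2 changes of 1.40 or more in siSAM68 and 1.64 or more in siXRN2.

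DBF4 was listed with a middle site at position 87537665 on the plus strand of chromosome 7, whose signal the table gives as A-rich. Its usage was 6.90% and 7.55% in siSAM68, 11.1% and 4.41% in siXRN2, and 0% in each siCTRL library. The siCTRL values rest on 0 of 2 and 0 of 9 reads, and a count of 0 among 9 reads allows a usage of up to 33.3%. The siSAM68 difference passed the test (limma adjusted p = 0.0388) and the siXRN2 difference did not (limma adjusted p = 0.0525). The siSAM68 call ended without either siSAM68 or either siCTRL library. At this depth the absence of reads leaves a usage in siCTRL like that of the silenced libraries possible.

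GINS2 was listed with both a middle and a last site, on the minus strand of chromosome 16 at positions 85711548 and 85711280. Its transcript in GENCODE release 29 holds the letters AATAAA 2 times, 271 bases apart, while the deposited sites lie 268 bases apart. Both signals are shown, in capitals within 30 bases of the transcript, because the 2 sites share the reads of the gene and lie about as far apart as the signals, which is how each signal was placed before its site:
GINS2 signal before the middle site: ttgagaAATAAAaaagccttaggtaaataa
GINS2 signal before the last site: atccacAATAAAaatggacccaactcagct
The middle site took 20.7% and 21.1% of GINS2 reads in siSAM68, 9.68% and 18.4% in siXRN2, and 32.1% and 43.3% in siCTRL. The last site took 75.7% and 78.5% in siSAM68, 87.1% and 79.7% in siXRN2, and 67.9% and 56.7% in siCTRL. In all 4 silenced libraries the middle site was below, and the last site above, both controls, and neither passed the test. The limma adjusted p-values were 0.152 and 0.0860 for the middle and last site in siSAM68, and 0.0868 and 0.0789 in siXRN2. At the middle site there were 29 of 140 and 44 of 209 reads in siSAM68, 9 of 93 and 67 of 365 reads in siXRN2, and 17 of 53 and 42 of 97 reads in siCTRL. The exact 95% counting intervals of the siCTRL libraries were 19.9% to 46.3% and 33.3% to 53.7%, and those of the siSAM68 libraries 14.3% to 28.4% and 15.7% to 27.2%. The summed level of GINS2 did not pass the test in either silencing, as given above.

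MCM6 was listed with an intronic site with the signal AATAAA, on the minus strand of chromosome 2 at position 136614111. Its usage was 1.50% and 1.48% in siSAM68, 3.19% and 3.79% in siXRN2, and 5.26% and 10.4% in siCTRL. Both silenced groups were below the controls and neither passed the test (limma adjusted p = 0.0644 in siSAM68 and 0.216 in siXRN2). The site had 2 of 133 and 3 of 203 reads in siSAM68, 3 of 94 and 15 of 396 in siXRN2, and 1 of 19 and 5 of 48 in siCTRL. The exact 95% counting interval of the first siCTRL library was 0.133% to 26.0%, which holds the usage of every silenced library. That of the second, deeper siCTRL library was 3.47% to 22.7%, which lies above the usage of both siSAM68 libraries and of the first siXRN2 library.

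**Figure D4:**
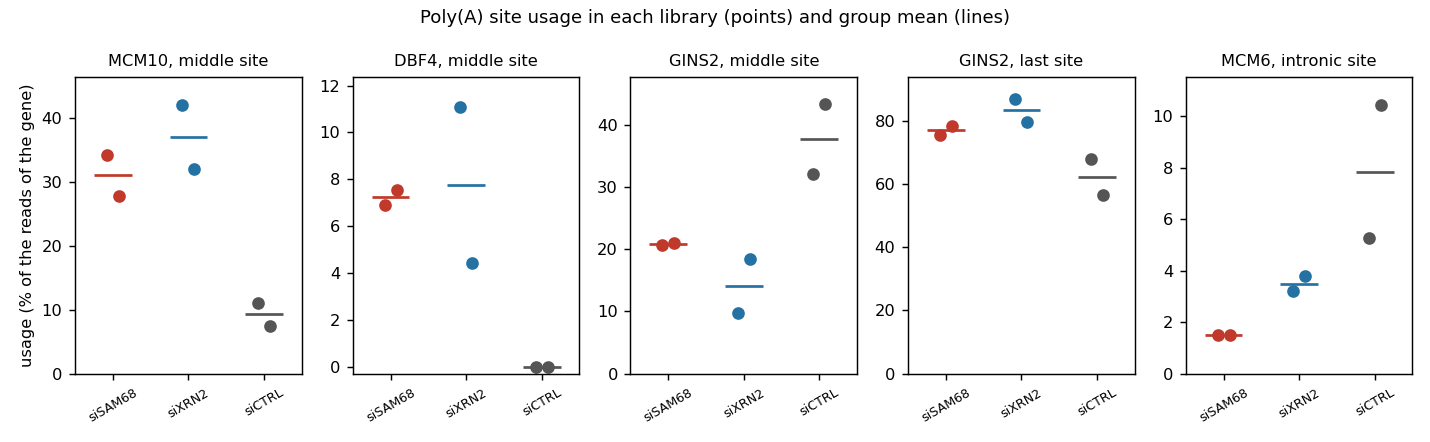
Usage of the 5 listed polyadenylation sites of replication genes, in percent of the reads of the gene, in each library (points) with the group mean (lines); panels have their own linear axes. At the MCM10 and DBF4 sites and at the last GINS2 site all silenced libraries are above siCTRL, and at the middle GINS2 site and the intronic MCM6 site they are below.

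Of 74 further genes of replication licensing, firing, synthesis and nucleotide supply, 19 were in the expression table. In siSAM68 7 of the 19 passed the test, or 36.8% against 58.8% of all genes, 4 higher and 3 lower. In siXRN2 4 did, or 21.1% against 33.3% of all genes, 2 in each direction. The median log2 change of the 19 was -0.16 in siSAM68 and 0.09 in siXRN2. In siSAM68 the higher genes were MCMBP, GMNN, GINS4 and RPA2. MCMBP, an MCM-binding chaperone, had 29.9 and 31.4 RPM in siSAM68, against 12.4 and 15.2 RPM in siCTRL (log2 1.10, limma adjusted p = 0.0106). GMNN, geminin, the inhibitor of origin licensing, had 105.0 and 131 RPM in siSAM68, against 52.9 and 95.8 RPM in siCTRL (log2 0.71, limma adjusted p = 0.0383). GINS4, which sits in the same complex as GINS2, had 13 and 14 reads in siSAM68, 16 and 45 in siXRN2, and 3 and 1 in siCTRL. Its log2 change was 1.28 in siSAM68 (limma adjusted p = 0.0465) and 1.78 in siXRN2 (limma adjusted p = 0.0215).

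The lower genes of the same list in siSAM68 were synthesis genes, as are 12 of the 19, among them RPA2, which was higher. POLD2, the accessory subunit that binds POLD1, had 11.3 and 15.0 RPM in siSAM68, against 37.6 and 25.8 RPM in siCTRL (log2 -1.20, limma adjusted p = 0.00946). Its transcript has 59.0% GC. CHTF8, a subunit of an alternative clamp loader, had 3.69 and 4.45 RPM in siSAM68, against 15.3 and 11.4 RPM in siCTRL (log2 -1.49, limma adjusted p = 0.00843). The subunits of RPA, which coats single-stranded DNA, split in both silencings. RPA1 had a log2 change of -0.77 in siSAM68 (limma adjusted p = 0.00634) and -0.81 in siXRN2 (limma adjusted p = 0.00955), while RPA2 had 0.91 (limma adjusted p = 0.0180) and 0.89 (limma adjusted p = 0.0328). RPA3 fell in siXRN2 (log2 -0.70, limma adjusted p = 0.0144). Of the 7 siSAM68 calls of this list each was lost when 1 of the siSAM68 or siCTRL libraries was left out, and those of GMNN and GINS4 also with GC correction and with median-of-ratios scaling. Of the 4 siXRN2 calls that of RPA1 held without any 1 library.

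**Figure D5:**
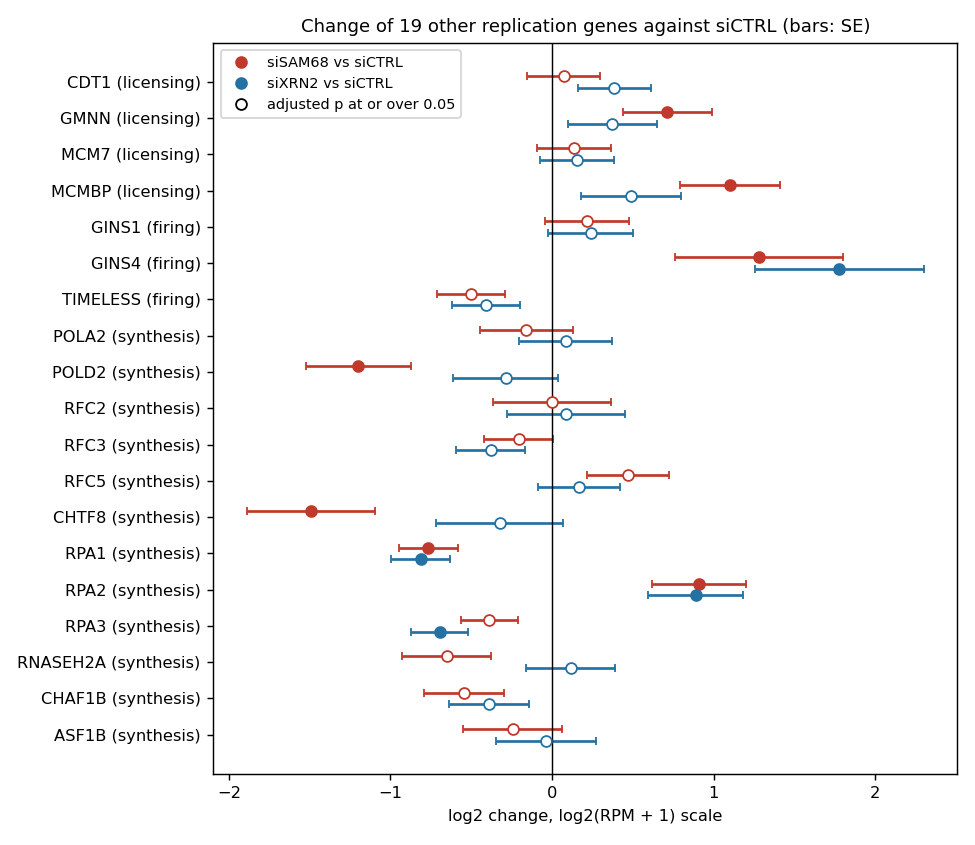
Log2 change against siCTRL of the 19 further replication genes in the expression table, on the log2(RPM + 1) scale with bars of 1 SE; siSAM68 is in red above siXRN2 in blue, and filled points have a limma adjusted p under 0.05. RPA1 is filled below 0 and RPA2 and GINS4 above 0 in both comparisons.

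Of the 74 further genes, 21 had sites listed, 32 in all, of which 5 passed in siSAM68, 2 higher and 3 lower, and 3 passed in siXRN2, 2 higher and 1 lower. That is 15.6% and 9.38% of the 32 sites, against 14.6% and 5.19% of all tested sites. Of all tested sites, 5.96% were lower in siSAM68 and 1.4% in siXRN2. ORC2, a subunit of the origin recognition complex, had a middle site used at 41.3% and 44.1% in siSAM68, 57.7% and 54.9% in siXRN2, and 83.3% and 79.3% in siCTRL. Its log2 change was -0.91 in siSAM68 (limma adjusted p = 0.0143) and -0.52 in siXRN2 (limma adjusted p = 0.0479). Another middle site of ORC2 was used at 28.3% and 17.0% in siSAM68, 15.4% and 20.6% in siXRN2, and 0% and 3.45% in siCTRL. It was not called (limma adjusted p = 0.0514 in siSAM68 and 0.0791 in siXRN2). A middle site of MCMBP was used at 3.45% and 4.23% in siSAM68, 5.56% and 7.06% in siXRN2, and was listed at 0% in both siCTRL libraries, in which MCMBP had 9 and 20 reads. A middle site of MCM8, an MCM paralog of DNA repair, was used at 5.94% and 3.09% in siSAM68, 6.78% and 7.89% in siXRN2, and was also listed at 0% in both siCTRL libraries. Both were called in each silencing, with limma adjusted p-values of 0.0444 and 0.0430 for MCMBP and 0.0462 and 0.0436 for MCM8. These calls of MCMBP and MCM8 ended with a pseudocount of 5% and with the replicate block. At 9 and 20 reads, a usage of the called MCMBP site in siCTRL like that of the silenced libraries remains possible. Another middle site and the last site of MCMBP were also listed, and neither was called in either silencing. That other middle site was used at 82.8% and 66.2% in siSAM68, 75.0% and 69.4% in siXRN2, and 55.6% and 40.0% in siCTRL. DONSON, a helicase assembly factor, had 2 middle sites listed. The called one, at position 34949857, was used at 9.09% and 10.5% in siSAM68 and 100% and 40.0% in siCTRL (limma adjusted p = 0.0389). The other, at position 34950211, was used at 81.8% and 89.5% in siSAM68 and 0% and 50.0% in siCTRL, and was not called (limma adjusted p = 0.166). The last site of TOP1, topoisomerase I, was used at 12.5% and 19.1% in siSAM68 and 50.0% and 75.0% in siCTRL (limma adjusted p = 0.0429). Each of these site calls ended with at least 1 library left out. Those of MCM8 and TOP1, and the siXRN2 calls of ORC2 and MCMBP, ended with any 1 library left out. The depth behind the percentages of ORC2, MCM8, DONSON and TOP1 is unknown.

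The promoters of the members were searched for E2F-type letters, TTTGGCGC, TTTCCCGC, TTTGCCGC and TTTCGCGC, on both strands of the RefSeq promoter windows of GRCh38.p14. These letters were in 4 of the 8 members with a window, MCM2, MCM3, MCM6 and GINS2, and in 24 of 62 further replication genes. They were in 3.99% of all 27305 genes with a window and in 7.66% of those of the expression table. DBF4, MCM10, POLD1 and RRM2 had no match in their windows. Each window ran from 250 bases before to 50 bases after the gene start. Only these exact letters were searched, so other E2F-type sites could be missed. MCM6, called in both silencings, has 2 pairs of overlapping matches on opposite strands. 1 match of each pair is shown in capitals, and the single match of GINS2 is shown for comparison. All 3 are written 5′ to 3′ along the gene's own strand, the minus strand:
MCM6, chr2:135876515-135876544: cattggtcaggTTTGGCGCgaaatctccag
MCM6, chr2:135876577-135876606: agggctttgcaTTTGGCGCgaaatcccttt
GINS2, chr16:85688967-85688996: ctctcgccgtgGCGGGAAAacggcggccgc
MCM6, MCM3, GINS2 and MCM2, which hold a match, had log2 changes of 1.31, 0.27, 0.14 and -0.03 in siSAM68. DBF4, RRM2 and POLD1, which hold none in their windows, had 1.94, 0.60 and -1.28. A link of the letters with these changes was not tested. A match is a stretch of letters and not a measured binding site.

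Across the 6 libraries, MCM6 and DBF4 were the most alike of the members, with a Pearson correlation of 0.97 on the log2(RPM + 1) scale. MCM3 and MCM4 followed at 0.90, and RRM2 was most like MCM6 among the members, at 0.89. POLD1 and RRM2 had the lowest value, -0.65. Among all tested genes the nearest pattern to MCM6 was that of BRIP1, at 0.99, and to DBF4 that of MAPK14, at 1.00. MCM5 was nearest to STK35 at 0.99, RRM2 to YARS at 0.99, GINS2 to BTG3 at 0.98, POLD1 to PDIA2 at 0.97, MCM3 to CDC25B at 0.98, MCM4 to TPX2 at 0.94 and MCM2 to RFC2 at 0.92. All points share the same 6 libraries and 3 groups, and the nearest of 1938 genes over 6 libraries is high for any gene, so these values are descriptions only.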

How the data were processed

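Per the submitters' processing notes, the tools were cutadapt and Bowtie2 and the build was hg19, with no tool version given in the sources used here. Per the file headers, the authors deposited RPM per gene and library with 1 decimal, and the percent usage of each polyadenylation site. Within a group the RPM values are whole multiples of 1 step within 0.05 RPM (0.238 for siSAM68, 0.157 for siXRN2, 0.492 for siCTRL), so both libraries of a group share 1 scaling; approximate reads are RPM divided by this step. Each library was therefore rescaled to the listed total of its group. The authors deposited log2 ratios, usage differences and a score too, which were not used as results. Tests used limma 3.58.1 in R 4.3.3, empirical Bayes with trend, all 6 libraries in 1 fit, on log2(RPM + 1) for genes averaging 1 RPM or more and on log2(percent + 1) for sites averaging 1% usage or more. Libraries are called biological replicates by the series' design text. All members were named, as were genes of the further replication list past the threshold. Members and lists were chosen with earlier results of these data known. GC content came from GENCODE transcripts for 99.2% of genes, and GC correction was a loess fit (span 0.5). Other scalings, pseudocounts, filters, a replicate block and leaving out each library were tried as alternatives. The fits were also run on simulated normal values with the spread of these libraries, which are not drawn as read counts. In siSAM68, 100 of 1938 genes and 100 of 4811 sites were given each size of change, and all others none. For expression, 63% of log2 changes of 1 and 94% of log2 changes of 2 were called, with 6 false calls among 163. For site usage it was 24% and 41%, with 1 false call among 66, so that a changed site can often miss the threshold. More genes and sites were called in the data than in the simulation. The share recovered depends on how many change, so these shares need not hold for the data. Figures were drawn with matplotlib 3.10.9.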

Additional observations from a re-analysis of the deposited data

How the results depend on the processing

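MCM6 and DBF4 kept their siSAM68 calls in 14 of 15 alternatives each, and lost them on the deposited RPM without rescaling. There limma called 1 gene in siSAM68, 0 in siXRN2 and 1 between siSAM68 and siXRN2. Among members it called 0 in siSAM68 and 0 in siXRN2. Leaving out a siXRN2 library or dropping the filter on low values left the siSAM68 log2 changes of MCM6 and DBF4 as they were. Those alternatives could move only the adjusted p and are weak checks of these calls. The members called in siSAM68 were 2 of 9 with GC correction, beside 978 of 1938 genes. They were 3 of 9 with replicate block and GC correction together, beside 1056 of 1938. Both shares of members are below those of all genes. Voom weights on approximate reads were chosen after seeing the data, like the scaling to 1 common listed total. They gave 1 member in siXRN2, MCM6, with DBF4 lost, beside 634 of all genes. Between siSAM68 and siXRN2 they gave 165 genes. That last count was 30 with median-of-ratios scaling, 9 with a pseudocount of 5 RPM, 1 with the replicate block and 45 with block and GC correction together. Over all tested genes, deviations of same-numbered libraries correlated little between groups (0.00 to 0.18 for expression). A pairing in single genes cannot be judged from these correlations. In each group MCM2, MCM3, MCM4, MCM6 and DBF4 were higher in replicate 2 than in replicate 1. The siSAM68 change of MCM4 had a limma adjusted p of 0.135 with the replicate block, also without a call. With the replicate block 113 sites were called in siSAM68 and 0 in siXRN2, with 0 member sites in each. Members called by expression were 5 and 2, as without it, beside 1142 and 653 of all genes. Member sites called in siSAM68 were 1 with a pseudocount of 5% and 1 with a mean usage of at least 5%. The matching counts of all sites were 806 and 498. In siXRN2 member sites called were 0 with a pseudocount of 5%, 1 with a mean usage of at least 5% and 2 with no filter. The matching counts of all sites were 175, 215 and 289. Between siSAM68 and siXRN2 3 sites were called with a pseudocount of 5%.

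With 1 library left out, calls ran in siSAM68 between 344 and 1245 genes (2 to 5 members) and 0 and 775 sites (0 to 1 of members). In siXRN2 they ran between 199 and 714 genes (0 to 3 members) and 0 and 386 sites (0 of members). Between siSAM68 and siXRN2 they ran between 1 and 338 genes (0 to 1 members) and 0 sites. A lone library in a group was then assumed to vary like the others.

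Signs turned only in values not called on either side. In siSAM68 they were MCM2 at 0.024 on deposited RPM and 0.15 with GC correction, with or without the block, and, with median-of-ratios scaling, GINS2 at -0.014 and MCM7 at -0.025. In siXRN2 MCM2 was -0.042 on deposited RPM and -0.027 with median-of-ratios scaling. Between siSAM68 and siXRN2 MCM2 was 0.066 and MCM3 0.10 on deposited RPM, MCM2 was 0.13 and RRM2 -0.077 with GC correction, with or without the block, and the DBF4 site was -0.011 with a pseudocount of 5%. With 1 library left out, the ranges in siSAM68 were -0.60 to 0.54 for MCM2, -0.031 to 0.32 for GINS2 and -0.22 to 0.49 for MCM7. In siXRN2 they were -0.51 to 0.63 for MCM2, -0.12 to 0.53 for MCM4, -0.050 to 0.79 for GMNN, -0.19 to 0.51 for MCM7, -0.42 to 0.34 for MCM5 and -0.45 to 0.092 for GINS2. Between siSAM68 and siXRN2 they were -0.48 to 0.31 for MCM2, -0.30 to 0.19 for MCM3, -0.19 to 0.39 for RRM2, -0.16 to 0.42 for MCM4, -0.12 to 0.52 for MCM6 and -0.56 to 0.60 for the DBF4 site. The cause of these changes was not tested.

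The planned edgeR and DESeq2 fits were not run, because the deposited RPM is rounded and the tables hold no counts. Depth limits DBF4 and POLD1, with 11 and 32 reads over both siCTRL libraries, and the MCM10 site, whose depth is unknown.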
